A study of Mus musculus with 16 samples.

Results

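EC_28 and EC_32 are the smallest of the 6 cell clusters whose deposited names start with EC in a single-cell RNA sequencing study of brown fat in mice, a tissue that burns fuel to make heat. The members were all cells that carry either name in the authors' table of named cells. EC_28 held 195 cells and EC_32 held 62, so 257 of the 2983 cells with an EC name were members. They made up 1.06% of the 24352 named cells and 0.234% of the 109723 cells of the series. The other EC clusters, EC_10 (867 cells), EC_11 (839), EC_15 (698) and EC_23 (322), were the reference, with 2726 cells.

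The cells came from the stromal vascular fraction of interscapular brown fat of C57BL6J mice, the pellet of vessel, nerve, immune and precursor cells obtained when digested tissue is spun and the layer of fat cells discarded. Mice were kept for 1 week at 30 °C, which is thermoneutral for a mouse, for 1 week at 22 °C, which is room temperature, or in the cold at 5 °C, for either 2 days or 7 days. Each housing had 4 libraries, numbered 1 to 4 in the labels. No genetic change or transgene is named, and neither the age and sex of the mice nor the number of mice per library is given in the sources used here. Replicate 1 of 2-day cold held no named cell, so the named clusters were compared over 15 libraries, 3 of them from 2-day cold.

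Endothelial cells line blood vessels, and in brown fat a dense capillary bed delivers fuel and oxygen to the fat cells and carries heat away. Cold exposure is known to bring endothelial cells of this tissue into division. A dividing cell copies its DNA in S phase, prepares to divide in G2 and divides in M. A phase score sums up how strongly a cell expresses genes of S phase or of G2 and M, relative to other genes, and a phase call (G1, S or G2M) is made from the scores.

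The deposited tables hold values per cell (counts of transcripts and genes, phase scores, cluster numbers) and gene values were not analysed here. The endothelial markers Pecam1 and Cdh5 and the division markers Mki67 and Top2a could therefore not be read in EC_28 or EC_32. Their names are used as deposited, and whether the cells are endothelial was not tested. Every statement on division below rests on the authors' scores and calls.

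Depth differed between libraries. A library held 1473 to 10005 cells, of which 55 to 472 had an EC name in the 15 libraries with named cells. The median number of unique molecular identifiers (UMIs, counted transcripts) per cell was 1978.5 to 9819 over all 16 libraries. The highest median was that of 2-day cold replicate 1, in which the median share of mitochondrial UMIs was 29.1%, against 2.47% to 6.01% in the other 15. Of the members, 6 of the 195 EC_28 cells and 0 of the 62 EC_32 cells had a barcode that also occurred in another library. Over the series, 3090 of the 109723 cells had such a barcode.

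EC_28 was not one kind of cell by the authors' own finer clustering. The names follow cluster numbers at resolution 1.2 of 8 deposited resolutions, where a higher resolution cuts the cells more finely. At resolution 1.8, 172 EC_28 cells formed cluster 33, which held no other named cell. The remaining 23 fell in cluster 43 together with 28 cells named ECAP_4, a cluster of 1859 cells outside the EC names. The same cut appeared at the coarsest resolution, 0.1. There the 172 cells were the only named cells of cluster 12, and the 23 cells lay in cluster 4 with 1858 ECAP_4 cells. At the resolutions from 0.4 to 1.2 the 195 cells formed a single number with no other named cell.

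The phase scores of these sets lay far apart. The 172 cells had a median S score of -0.00094 and a median G2M score of -0.011. The 23 cells had a median S score of 0.373 and a median G2M score of 1.08, with a G2M range from 0.470 to 1.50. Other EC cells had medians of 0.0031 for S and -0.0052 for G2M. All 23 cells were called S or G2M, 91.3% of them G2M. In the table of all cells, for which the authors computed the scores again, the 23 cells had a median G2M score of 1.02. Clusters and scores were both made from the gene expression of the same cells, and which genes went into the clustering is not given in the sources used here. These values therefore describe the sets and are not tested.

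**Figure D1:**
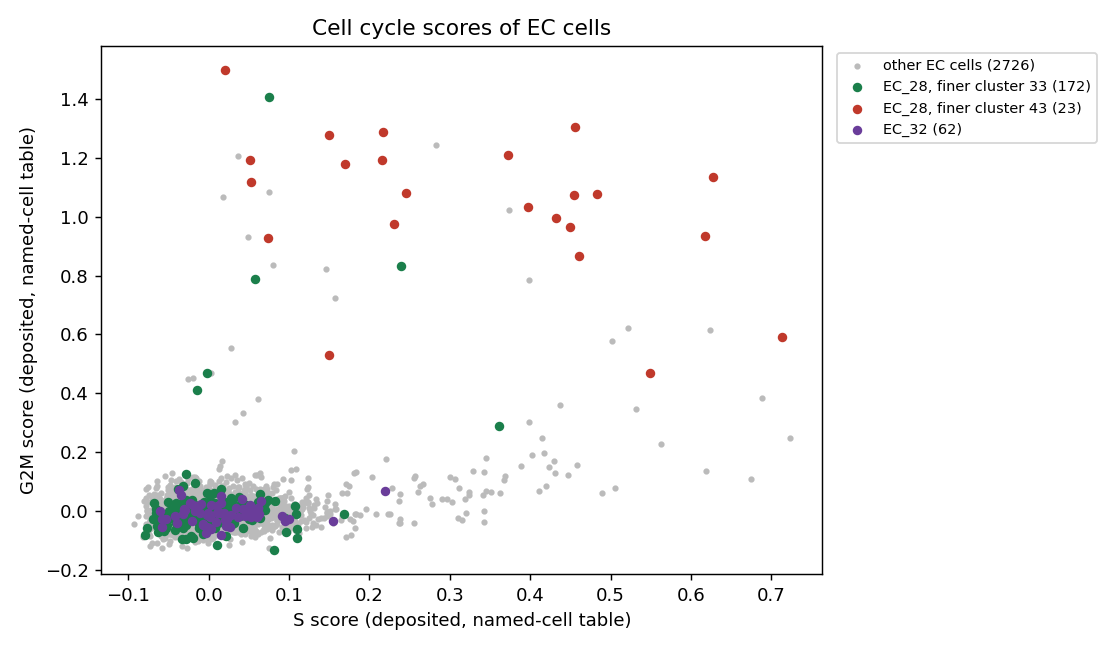
S score (horizontal) against G2M score (vertical) of each cell with an EC name, as deposited in the table of named cells; each point is 1 cell, with EC_28 divided by the finer clusters 33 and 43. The 23 cells of finer cluster 43 lie at G2M scores from 0.470 to 1.50, whereas EC_32 reaches no more than 0.073.

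EC_28 held most of the EC cells with a high G2M score. Above a G2M score of 0.5, a level chosen after the scores were seen, there were 39 EC cells. Of these, 25 (64.1%) were EC_28, 11 were EC_10 and 3 were EC_11, while EC_15, EC_23 and EC_32 had 0. The 25 EC_28 cells were 22 of the 23 in finer cluster 43 and 3 of the 172 in finer cluster 33. Outside the EC names the largest such set was ECAP_4, with 26 cells. High S scores were distributed differently. A level of 0.3 for the S score was also not set in advance. Above it there were 45 EC_10 cells (5.19% of that cluster), 42 of them from 2-day cold. EC_28 had 13 such cells (6.67% of that cluster) and EC_32 had 0.

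The 23 cells with high scores also carried more transcripts. Their median was 13933 UMIs per cell, against 6259.5 in the 172 other EC_28 cells and 5267 in the other EC cells. Their median mitochondrial share was 2.72%, against 2.44% and 3.26%. The part of depth in the scores was not tested, since cells could not be thinned to one depth without gene values, and doublets were not called.

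EC_28 cells were few in every library, and 2-day cold had the highest shares on average. At 30 °C, replicates 1 to 4 held 41, 2, 7 and 10 EC_28 cells, which is 8.69%, 2.78%, 7.37% and 5.75% of their EC cells. At 22 °C the numbers were 8, 25, 5 and 0, or 2.65%, 5.97%, 3.14% and 0%. The 61 EC cells of that last library allow a share of up to 4.92%.

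After 2 days at 5 °C, replicates 2 to 4 held 30, 18 and 28 EC_28 cells, or 8.50%, 7.41% and 14.8% of EC cells. After 7 days the numbers were 4, 11, 3 and 3, or 2.53%, 7.80%, 3.33% and 5.45%. All 3 libraries of 2-day cold lay above all 4 libraries at 22 °C, while they overlapped those at 30 °C and after 7 days. Single shares have wide counting errors: the 95% Wilson interval was 10.5% to 20.6% for the highest library and 6.47% to 11.6% for the library with most EC_28 cells, 30 °C replicate 1.

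**Figure D2:**
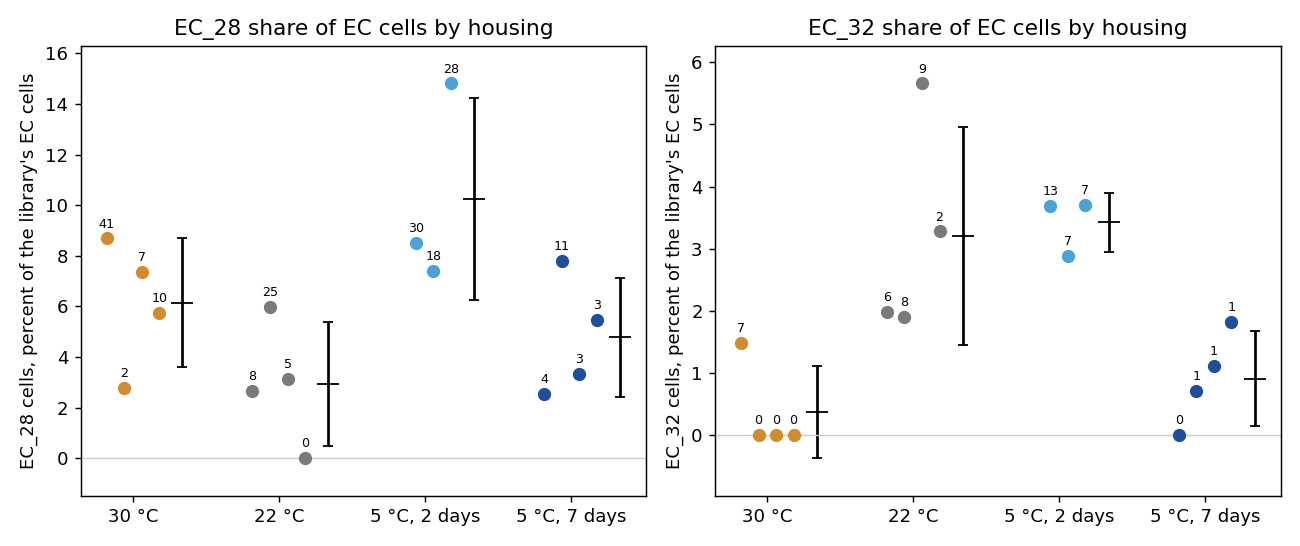
Share of each library's EC cells (vertical, percent) that are EC_28 (left) or EC_32 (right) by housing; each point is 1 library with its number of member cells above it, and the cross with bars is the mean ± SD over 4 libraries (3 for 2-day cold). EC_28 is highest on average after 2 days at 5 °C (10.2%), and EC_32 is at 0 in 3 of the 4 libraries at 30 °C.

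As a share of EC cells, EC_28 averaged 6.14% ± 2.55 (SD, n = 4) at 30 °C, 2.94% ± 2.44 (n = 4) at 22 °C, 10.2% ± 4.00 (n = 3) after 2 days of cold and 4.78% ± 2.36 (n = 4) after 7 days. The difference of 7.30 percentage points between 2-day cold and 22 °C had the smallest p that 3 against 4 libraries allow, 0.0286 in a two-sided exact permutation test. Adjusted over the 12 comparisons of both clusters by the Benjamini-Hochberg method it was 0.0686 (exact permutation test), so it did not pass 0.05. Seven-day cold differed from 2-day cold by -5.46 points, with p = 0.0857 (adjusted 0.171, exact permutation test). The 4.10 points between 2-day cold and 30 °C had p = 0.171 (adjusted 0.257, exact permutation test). The remaining 3 comparisons of EC_28 had exact permutation p-values from 0.171 to 0.457.

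As a share of all named cells, EC_28 was highest in the libraries of 2-day cold, by a narrow margin. Its shares there were 1.19%, 1.17% and 1.32% (mean 1.23% ± 0.0807, SD, n = 3). The highest share elsewhere was 1.10%, in 30 °C replicate 1. The means were 0.592% ± 0.341 at 30 °C, 0.388% ± 0.344 at 22 °C and 0.667% ± 0.250 after 7 days (SD, n = 4 each). This share also moves with the other named cells, and fewer cells of a type cannot be told apart from more cells of the others.

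The named clusters were tested together with limma, on the log2 odds of each cluster's share of the named cells. EC_28 was 1.81 ± 0.57 (log2 odds ratio ± standard error) higher after 2 days of cold than at 22 °C, with an adjusted p of 0.139. In this comparison limma called 0% of the 27 clusters tested, with 3 at an unadjusted p under 0.05 and 0 called by edgeR. The difference did pass when limma was given shares of EC cells (2.03, adjusted p = 0.0157, over the 6 EC clusters) and without 22 °C replicate 2 (2.21, adjusted p = 0.0362). These were 2 of 25 alternatives with a p, whose limma or edgeR adjusted p-values ran from 0.0157 to 0.692. The 6 EC shares of a library add up to the whole, so they are not independent, though limma pooled their spread. The exact permutation test of the EC_28 share of EC cells did not pass (adjusted p = 0.0686). The difference was 1.31 as a share of all cells (limma adjusted p = 0.645) and 1.51 in edgeR (adjusted p = 0.247). Within replicates 1 and 2 the difference was 0.91, and within replicates 3 and 4 it was 2.68.

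Against 30 °C, EC_28 was 1.11 ± 0.57 higher after 2 days of cold (limma adjusted p = 0.190), where 11.1% of clusters were called. It was 0.30 ± 0.53 higher after 7 days (adjusted p = 0.603), where 37% were called, and this direction turned to -0.36 as a share of EC cells. Room temperature differed from 30 °C by -0.70 ± 0.53 (adjusted p = 0.580), where 0% were called, with 1 cluster at an unadjusted p under 0.05 and 0 called by edgeR. Seven-day cold was 0.99 ± 0.53 above 22 °C (adjusted p = 0.164), where 7.41% were called. It was -0.81 ± 0.57 against 2-day cold (adjusted p = 0.549), where 0% were called, with 2 clusters at an unadjusted p under 0.05 and 0 called by edgeR. None of the 6 comparisons passed for EC_28 in this fit.

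Most EC cells with a high G2M score came from 2-day cold, in EC_28 as in its neighbours. Above a score of 0.5, 2-day cold gave 21 of 25 EC_28 cells, 9 of 11 EC_10 cells and 2 of 3 EC_11 cells. At any score, 2-day cold gave 39.0% of EC_28, 279 of 867 EC_10 cells and 156 of 839 EC_11 cells. Of the 23 EC_28 cells in finer cluster 43, 1 came from 30 °C, 2 from 22 °C, 18 from 2-day cold and 2 from 7-day cold. The 18 were spread over the libraries as 6, 5 and 7. They made up 20.0%, 27.8% and 25.0% of EC_28 in replicates 2, 3 and 4. At the other housings 8 of 12 libraries had 0 such cells, among them the one with no EC_28 cell at all, and replicate 2 of 7-day cold had 2 of 11. Pooled, finer cluster 43 held 23.7% of EC_28 cells in 2-day cold (95% Wilson interval 15.5% to 34.4%), 1.67% (0.295% to 8.86%) at 30 °C, 5.26% (1.46% to 17.3%) at 22 °C and 9.52% (2.65% to 28.9%) after 7 days. These intervals cover counting error only, and this split was chosen after its scores were seen, so no test is given.

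The rest of EC_28 followed housing less clearly. Finer cluster 33 held 6.09% ± 2.48 of EC cells at 30 °C, 2.72% ± 2.34 at 22 °C, 7.75% ± 3.0 in 2-day cold and 4.43% ± 1.8 after 7 days (SD, n = 4, 4, 3 and 4). The libraries of 2-day cold ranged from 5.35% to 11.1% and those at 30 °C from 2.78% to 8.47%, so they overlapped. Libraries at 22 °C reached 5.73% and those after 7 days 6.38%, so both overlapped 2-day cold as well. The full separation of 2-day cold from 22 °C in the EC_28 share was thus absent in finer cluster 33 alone. Finer cluster 43 of EC_28 held 2.49% ± 1.07 of EC cells in 2-day cold, from 1.70% to 3.70%. The highest library elsewhere was 1.42%, and the other means were 0.053%, 0.217% and 0.355%. The ECAP_4 cells of finer cluster 43 had another distribution: 16 came from 30 °C, 15 of them from replicate 1, against 1 from 22 °C, 5 from 2-day cold and 6 from 7-day cold.

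**Figure D3:**
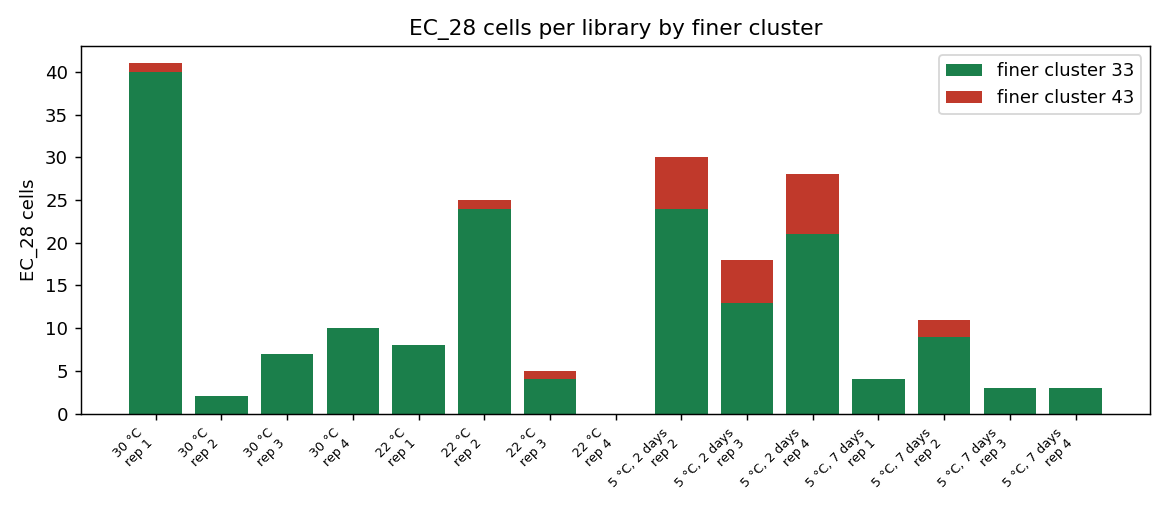
Number of EC_28 cells (vertical) in each of the 15 libraries with named cells, stacked by finer cluster at resolution 1.8. Finer cluster 43, the set with high phase scores, holds 6, 5 and 7 cells in the libraries of 2-day cold and at most 2 in any other.

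Per library, the mean G2M score of EC_28 minus that of all other EC cells of the library, EC_32 included, was 0.283 ± 0.0337 (SD, n = 3) in 2-day cold. It was 0.0046 ± 0.0186 at 30 °C and 0.0658 ± 0.106 at 22 °C (n = 3 each), over libraries with at least 5 EC_28 cells. Both differences, 0.278 from 30 °C and 0.217 from 22 °C, had p = 0.1 in exact permutation tests, the smallest that 3 against 3 libraries allow, and 0.3 after adjustment (exact permutation test). The S score was higher by 0.0324 ± 0.0329 in 2-day cold, -0.0027 ± 0.0093 at 30 °C and 0.0116 ± 0.0113 at 22 °C, with exact permutation p-values from 0.2 to 0.4. Only replicate 2 of 7-day cold had 5 or more EC_28 cells, with 0.137 for G2M and 0.101 for S, so that housing has no test. With EC_32 left out of the reference, chosen after the data were seen, the G2M differences were 0.277 and 0.216, with the same p-values.

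These means rest on the minority of cells with high scores. Against EC_10, EC_11, EC_15 and EC_23 together, the mean G2M score of EC_28 was higher in 8 of 10 libraries, the median in 5 of 10. In 2-day cold the means were 0.250, 0.316 and 0.341, whereas the medians were 0.0010, 0.0060 and 0.0134. The other EC cells of these libraries had means of 0.0048, 0.0276 and 0.0306 and medians of -0.0038, -0.0053 and -0.00036. Their mean S score in replicates 2, 3 and 4 was 0.0120, 0.0571 and 0.101, against 0.0780, 0.0871 and 0.0987 in EC_28. In replicate 4 the S score of EC_28 was no higher than that of the other EC cells, and in replicates 2 and 3 it was.

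Phase calls gave a different picture in each table. In the table of named cells, 68.7% of EC_28, 77.4% of EC_32 and 70.6% of the other EC cells were called S or G2M. In the table of all cells the shares were 30.8%, 24.2% and 23.4%. The calls of the tables were equal for 62.1% of EC_28 cells and 46.8% of EC_32 cells. Of the 172 EC_28 cells in finer cluster 33, whose median scores were near 0, 64.5% were called S or G2M in the table of named cells and 21.5% in the table of all cells.

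By the named-cell calls, the EC_28 share in S or G2M averaged 64.1% ± 6.34 at 30 °C, 74.2% ± 22.4 at 22 °C and 74.0% ± 6.39 in 2-day cold (SD, n = 3 each), with p from 0.2 to 1 in exact permutation tests. By the calls of the table of all cells, 2-day cold had 56.7%, 50.0% and 50.0%. The libraries at 30 °C with at least 5 EC_28 cells had 12.2%, 14.3% and 20.0%, and those at 22 °C had 0%, 20.0% and 60.0%, where the 60.0% stands for 3 of 5 cells. The difference from 30 °C was then 36.7 points, p = 0.1 (adjusted 0.3) in an exact permutation test. The difference from 22 °C turned from -0.198 points by the named-cell calls to 25.6 points (exact permutation p = 0.4).

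The clustering of all cells placed EC_28 the same way as the finer split. Of its 195 cells, 169 fell in cluster 52 (resolution 1.8 of all cells, numbered separately), a cluster of 237 cells. A further 23 fell in cluster 18, which held 93.8% of EC_10 and 93.3% of EC_15. By the split, 169 of the 172 cells of finer cluster 33 lay in cluster 52, while 22 of the 23 cells of finer cluster 43 lay in cluster 18. Beside EC_28, cluster 52 held 12 EC_32, 5 ECAP_4, 2 EC_10 and 1 EC_15 cells, and 48 without a name, 44 of them from 2-day cold replicate 1.

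**Figure D4:**
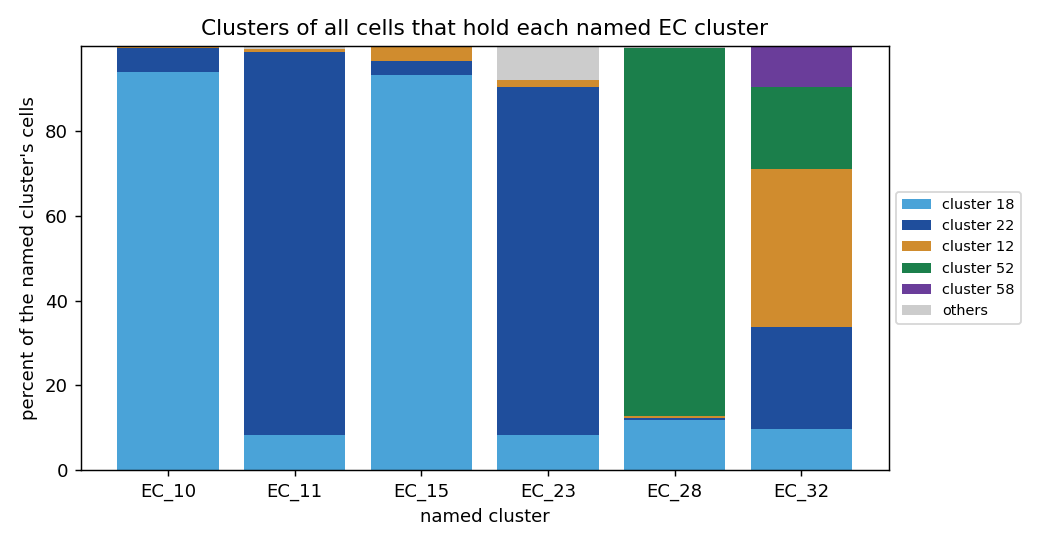
Share of each named EC cluster's cells (vertical, percent) in the clusters of all cells at resolution 1.8; colours are the clusters 18, 22, 12, 52 and 58 and all others together. EC_28 lies mostly in cluster 52 (86.7%), whereas EC_32 is divided among 5 clusters, none of which holds over 37.1% of it.

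Cluster 52 allowed a count in the library without names, an alternative chosen after the data were seen. It made up 0.440% of the cells of 2-day cold replicate 1, and 0.339%, 0.164% and 0.250% in replicates 2 to 4. At 30 °C it made up 0.420%, 0.175%, 0.0700% and 0.167%, and at 22 °C 0.317%, 0.343%, 0.05% and 0%, the last allowing up to 0.126%. After 7 days the shares were 0.0816%, 0.258%, 0.0350% and 0.204%. The groups overlapped. The means were 0.208% ± 0.149, 0.177% ± 0.178, 0.298% ± 0.118 and 0.145% ± 0.104 (SD, n = 4 each, in the order 30 °C, 22 °C, 2 and 7 days of cold).

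No comparison of cluster 52 passed in limma over 55 clusters of all cells. The largest was 2-day cold against 22 °C, at 1.4 ± 0.90 log2 odds (adjusted p = 0.510), where 5.45% of clusters were called. For 2-day cold against 30 °C it was 0.64 ± 0.90 (adjusted p = 0.745), with 9.09% called, and for 7-day against 2-day cold -1.21 ± 0.90 (adjusted p = 0.517), with 1.82% called. The other 3 comparisons, in which 0% were called, had limma adjusted p-values from 0.760 to 0.994. In those 3, 1, 8 and 10 clusters had an unadjusted p under 0.05 (22 °C and 7-day cold against 30 °C, then 7-day cold against 22 °C), and edgeR called 0.

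**Figure D5:**
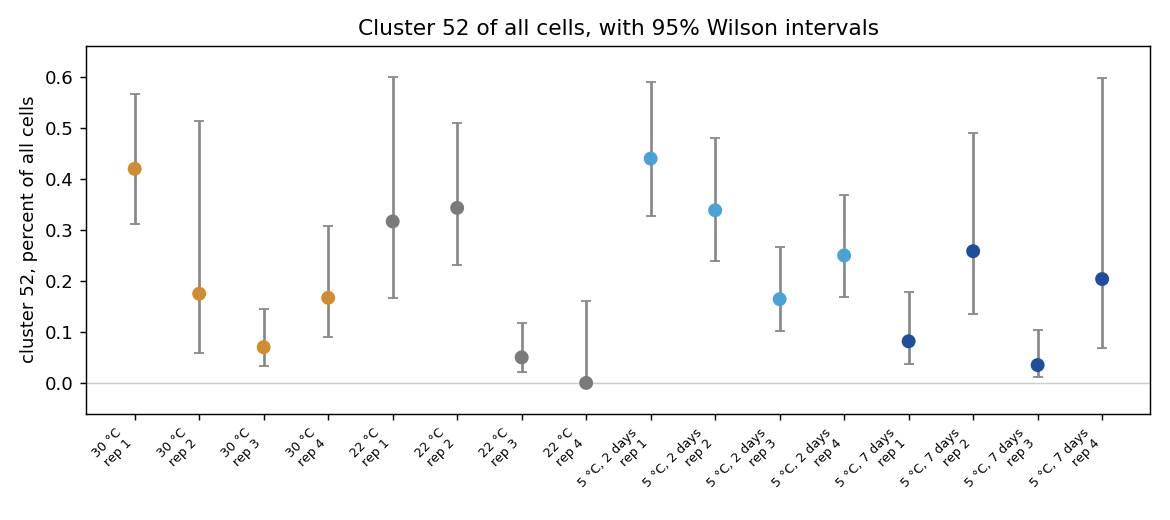
Cluster 52 of the clustering of all cells as a share of all cells (vertical, percent) in each of the 16 libraries; bars are 95% Wilson intervals, which cover counting error only. The 4 housings overlap, with 2-day cold replicate 1 at 0.440% and 30 °C replicate 1 at 0.420%.

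The high scores of 2-day cold were not seen at the same level in the library without names. Among the cells of cluster 18 with a G2M score above 0.5 in the table of all cells, 2-day cold replicates 2 to 4 had 7 of 216, 10 of 161 and 10 of 150 cells, or 3.24%, 6.21% and 6.67%. Replicate 1 had 1 of 285 cells (0.351%). The other housings had 0 such cells at 30 °C, 2 at 22 °C and 3 after 7 days, with at most 1.05% of cluster 18 in a library. Replicate 1 is the library with the high mitochondrial share, and the part of that in its scores was not tested.

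EC_32 cells were fewer at 30 °C and after 7 days of cold than at 22 °C and after 2 days of cold, on small numbers. At 30 °C replicate 1 held 7 EC_32 cells (1.48% of its EC cells) and replicates 2 to 4 held 0, which allows up to 4.17%, 3.16% and 1.72% of EC cells. At 22 °C the numbers were 6, 8, 9 and 2, or 1.99%, 1.91%, 5.66% and 3.28%. After 2 days of cold, replicates 2 to 4 held 13, 7 and 7, or 3.68%, 2.88% and 3.70%. After 7 days the numbers were 0, 1, 1 and 1, or 0% (up to 1.90%), 0.709%, 1.11% and 1.82%. All 7 libraries at 22 °C and 2-day cold lay above all 8 of the other housings. A share of EC cells, of EC_32 as of EC_28, also moves with the other EC clusters. Pooled, 22 °C had 220 EC_10, 331 EC_11, 200 EC_15 and 127 EC_23 cells among 941 EC cells. The numbers were 161, 306, 164 and 115 among 813 at 30 °C, and 207, 46, 141 and 26 among 444 after 7 days. EC_11 and EC_23 thus also had lower shares after 7 days than at 22 °C, and no test of them is given.

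The means were 0.371% ± 0.742 of EC cells at 30 °C, 3.21% ± 1.75 at 22 °C, 3.42% ± 0.469 in 2-day cold and 0.910% ± 0.760 after 7 days (SD, n = 4, 4, 3 and 4). Room temperature and 2-day cold were 2.84 and 3.05 points above 30 °C. Seven-day cold was -2.30 points from 22 °C and -2.51 points from 2-day cold. Each of these 4 differences had p = 0.0286, the smallest possible in its exact permutation test, and 0.0686 after adjustment over the 12 comparisons (exact permutation test). The other 2 comparisons had exact permutation p-values of 0.371 (7-day cold against 30 °C) and 0.914 (2-day cold against 22 °C). The limits set by 0 cells in 30 °C replicates 2 and 3 lie above the shares of several libraries at 22 °C, so those replicates alone do not set 30 °C apart at this depth.

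With a mean under 10 cells per library, EC_32 entered limma only when no minimum was set. Its share of named cells was then 2.87 ± 0.68 log2 odds higher at 22 °C than at 30 °C (limma adjusted p = 0.0213), where 3.57% of the 28 clusters were called, EC_32 being the single one. In 2-day cold it was 2.91 ± 0.74 higher than at 30 °C (limma adjusted p = 0.0178), where 17.9% were called. Both sizes depend on the 0.5 cells added, since 3 of the 4 libraries at 30 °C had 0. With the replicate number as a block, the first did not pass (limma adjusted p = 0.0735). In edgeR neither passed, with 2.29 (adjusted p = 0.179) and 2.03 (adjusted p = 0.104). In limma the first did not pass without 30 °C replicate 3 (adjusted p = 0.0921) or 4 (0.0916), or without 22 °C replicate 1 (0.0504), 3 (0.0698) or 4 (0.0821). The second did not pass without 30 °C replicate 3 (limma adjusted p = 0.0524) or 4 (0.0639), or without 2-day cold replicate 2 (0.0537).

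The other comparisons of EC_32 did not pass in limma. Seven-day cold differed by 1.43 ± 0.68 from 30 °C (adjusted p = 0.0924, 35.7% called), and passed without 30 °C replicate 1 (2.01, adjusted p = 0.0176). The libraries then left at 30 °C all held 0 EC_32 cells, so that value rests on the 0.5 cells added. Seven-day cold differed by -1.44 ± 0.68 from 22 °C (adjusted p = 0.133, 7.14% called) and by -1.48 ± 0.74 from 2-day cold (adjusted p = 0.514, 0% called). Two-day cold and 22 °C differed by 0.04 ± 0.74 (adjusted p = 0.990, 0% called). In those last pairs 2 and 3 clusters had an unadjusted p under 0.05 in limma, and edgeR called 0.

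EC_32 showed no cell with high phase scores. Its G2M score ran from -0.0813 to 0.0728 and its S score from -0.0611 to 0.219, with medians of -0.0097 and 0.0105. In the table of all cells its highest G2M score was 0.0037. The mean G2M score of EC_32 lay below that of the other EC cells in 10 of the 11 libraries that held it. Its median G2M score was higher in 4 of the 11, and its share called S or G2M by the named-cell calls in 9. In the 7 libraries with at least 5 EC_32 cells, the mean was higher in 0, the median in 2 and the called share in 5. The means of the other EC cells include their few cells with high scores.

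EC_32 cells carried more transcripts than the other EC cells of their own library in 11 of 11 libraries. Their median was 10601 UMIs and 3142.5 genes per cell, against 5267 and 2063 in the other EC cells. In the 7 libraries with at least 5 EC_32 cells, their medians were 6791 to 14759 UMIs, against 4145 to 6777.5. EC_11 cells had more still, with a median of 12804. EC_28, at 6494 UMIs, lay above the other EC cells in 9 of 14 libraries. No member had 20% or more mitochondrial UMIs, whereas 9.63% of EC_23 did.

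The place of EC_32 among the clusters changed with the clustering. At resolutions from 0.1 to 1 of the named-cell table, 61 of its 62 cells formed a number with no other named cell and 1 lay with ECAP_4. At resolution 0.1 this was number 6, with 61 named cells, while numbers 5, 7 and 8 held 988, 0 and 763. Cells without a name are not seen in these counts. Whether such cells shared the number with EC_32 was not tested. At resolutions 1.4 and 1.8 all 62 shared a number with 58 ECAP_4 cells, which had a median of 17135.5 UMIs and no G2M score above 0.5. At resolution 0.1, 2708 of the 2726 other EC cells lay in cluster 1, and neither EC_28 nor EC_32 had a cell there. In the clustering of all cells EC_32 was spread over cluster 12 (23 cells), cluster 22 (15), cluster 52 (12) and clusters 18 and 58 (6 each). Of the named cells in cluster 12, 96.4% were ECAP_4. Whether cells caught together in one droplet contribute to EC_32 was not tested.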

How the data were processed

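The kit was the 10x Chromium 3′ v3 reagent kit, per the labels' protocols, and STAR, Cell Ranger 3.0.1 and mm10 are named in the submitters' processing notes. How cells were filtered, integrated and clustered is not given in the sources used here. For each cell the authors deposited UMI and gene counts as whole numbers. The deposited mitochondrial fraction, between 0 and 1, is printed here as a percentage. S and G2M scores, phase calls and cluster numbers were deposited by the authors, separately for 109723 cells (16 libraries) and 24352 named cells (15 libraries). The library was the replicate. The labels do not say that libraries came from separate animals, so p-values measure the spread between libraries, which may be technical.

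Shares of the 28 named clusters were put on the log2 odds scale with 0.5 cells added. They were fitted in R 4.3.3 by limma 3.58.1. All 4 groups entered the fit, which gave 6 contrasts over the 27 clusters that averaged 10 or more cells per library. Benjamini-Hochberg adjustment was applied per contrast, and 0.05 was the threshold. Shares of EC cells, phase calls and scores were compared by two-sided exact permutation tests on library values, the last 2 over libraries with at least 5 EC_28 cells. Alternatives included edgeR 4.0.16 on the cell numbers, other denominators and each library left out. EC_28 and EC_32 were always named, other clusters only as reference or where members fell in them. The members and lists were chosen with earlier results of these data known. Tests on cluster 52, edgeR for EC_32 and the score reference without EC_32 were added after seeing the data. Wilson intervals and limits from 3 cells cover counting error only.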

Additional observations from a re-analysis of the deposited data

Results flagged for a closer look

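Within the group at 30 °C, replicate 1 stood apart in its EC_32 share, at 1.48% of EC cells and 0.187% of named cells, while the other 3 libraries were at 0. Its gap to the nearest library is the whole range of the group, which is past Dixon's 95% critical value for 4 samples. With 3 libraries at 0 this holds for any share above 0, so it says nothing of the size of the share. The rate of about 1 in 20 groups past this value by chance is for normally distributed values and does not apply here. Replicate 1 also held the most EC cells of any library, 472, and the EC cells of the other 3 (72, 95 and 174) allow shares of up to 4.17%, 3.16% and 1.72%.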

How the results depend on the processing

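Of 372 alternative values tested in limma or edgeR, 341 kept the direction and the side of the threshold, 17 changed direction, 11 lost a call and 3 gained one. Of 285 others (no p, or from exact permutation tests, many of which cannot pass 0.05 at these numbers of libraries), 272 kept the direction and 13 changed it. For EC_28 as a share of named cells, 7-day cold against 30 °C turned to -0.44 with centred log ratios, -0.0040 in edgeR, -0.51 as a share of all cells and -0.36 as a share of EC cells. Two-day cold against 22 °C passed as a share of EC cells in limma (2.03) and ranged from 1.35 to 2.21 with each library left out. For EC_32, leaving out each library gave 2.33 to 3.45 (22 °C against 30 °C), 2.37 to 3.49 (2-day cold against 30 °C), 0.89 to 2.01 (7-day cold against 30 °C) and -0.18 to 0.27 (2-day cold against 22 °C). The last was -0.0088 with 1 cell added and -0.26 in edgeR, in which the first pair gave 2.29 and 2.03 and lost their calls. The upper ends 3.45, 3.49 and 2.01 came from leaving out 30 °C replicate 1. The libraries then left at 30 °C all held 0 EC_32 cells, so those values rest on the 0.5 cells added. For cluster 52, leaving out each library gave -1.34 to 0.019 (22 °C against 30 °C) and -0.59 to 0.76 (7-day cold against 22 °C), and edgeR gave 0.090 and -0.54.

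With the replicate block, EC_32 at 22 °C against 30 °C was 2.87 with an adjusted p of 0.0735 in limma, so its call was lost, and as a share of EC cells 2-day cold minus 22 °C was -0.194 points. EC_28 in 2-day cold against 22 °C was 1.93 in the block (limma adjusted p = 0.116). The block changed no other call. The numbers were not taken to pair the libraries: over 21 same-numbered pairs the correlation of deviations from group means ran from -0.302 to 0.655, with 12 above 0.1.

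When cells below the median UMI count were left out, the EC_28 share of EC cells in 7-day cold was 5.89 points above 30 °C. As a share of EC cells, EC_32 in 2-day cold minus 22 °C ran from -0.220 to 1.03 points with each library left out. The EC_28 share in S or G2M ran from -2.88 to 17.1 points (22 °C minus 30 °C) and from -7.28 to 12.7 (2-day cold minus 22 °C). With the calls of the table of all cells, 2-day cold minus 22 °C was 25.6 and 7-day minus 2-day cold -24.9 points. With every library that had an EC_28 cell, 7-day cold minus 22 °C was -3.52 and minus 2-day cold -3.32 points, the S score difference from 2-day cold -0.0070 and the G2M score difference from 22 °C -0.031. The cause of these changes was not tested. Few cells limit the precision: libraries held 0 to 41 EC_28 cells.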
